A study of Mus musculus with 9 samples.

Results

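The genes described here are those of the replication-dependent histones, together with Lsm11 and Slbp, whose products process or bind histone mRNA, in cultured mouse cortical neurons with and without Tdp-43. Members were all gene symbols that begin with Hist1h, Hist2h, Hist3h or Hist4h among probe sets annotated with 1 symbol, plus Lsm11 and Slbp. This gave 28 genes, 26 of them histone genes, out of 22296 genes with such a probe set. Of the 28, 26 were measured, 24 of them histone genes, out of 20306 measured genes in all. The set is defined by symbol, so it also holds genes known as germ cell variants (Hist1h1t, Hist1h2aa and Hist1h2ba) and 2 genes that RefSeq lists as transcribed pseudogenes (Hist3h2bb and Hist1h2al).

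Neurons came from the cortex of C57BL/6 embryos on embryonic day 15 and were treated a day after plating with AraC, an inhibitor of DNA synthesis that removes dividing cells. All 9 samples received a lentivirus on day 5 for 4 h and were harvested on day 11. The virus carried a control hairpin RNA (shCont), the hairpin shTdp-43-1 or the hairpin shTdp-43-2, both directed against mouse Tdp-43, with 3 arrays in each group. Motor neurons are named in the series' design text, whereas the title and every sample label say cortical neurons, the name used here. Each array, an Affymetrix Mouse Exon 1.0 ST chip, was made from 100 ng of RNA and reports a log2 value for each probe set.

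Replication-dependent histones package newly copied DNA, and their genes are normally active in S phase. Their mRNAs have no introns and end in a stem-loop in place of a poly(A) tail. Slbp binds the stem-loop, and the U7 small nuclear RNA particle, which contains Lsm10 and Lsm11 in place of 2 of the usual Sm proteins, guides the cut that forms the 3′ end. The endonuclease is Cpsf3, working with Cpsf2 and symplekin (Sympk). Neurons that have left the cell cycle do not copy their DNA, yet keep some histone mRNA.

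The value of a gene was the mean log2 value of its probe sets whose average over the 9 arrays reached the median of the table, 6.07. For the 28 genes, 78 of 104 probe sets passed, 56 of them among the 81 of the histone genes. The highest averages just below the threshold were 5.90 in Hist1h1a, 5.98 in Hist1h2ac and 5.98 in Hist1h2bg, and the lowest just above it were 6.08 in Hist1h1t, 6.11 in Hist1h2bg and 6.22 in Hist1h2bp. Hist1h2ad (4 probe sets) and Hist1h2ba (1 probe set) had none that passed. The average level therefore decided which members were measured and is not a result.

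Gene values of the 9 arrays had medians from 8.44 to 8.57, and correlated across genes between 0.979 and 0.991 within groups and between 0.964 and 0.983 across groups. The gene aimed at by both hairpins, Tardbp, which encodes Tdp-43, was at 9.92 ± 0.148 (SD, n = 3) with shCont, 8.21 ± 0.352 with shTdp-43-1 and 8.23 ± 0.337 with shTdp-43-2. That is 30.4% and 30.9% of the control level (limma adjusted p = 0.00236 and 0.000788), and the hairpins differed from each other by 0.03 on the log2 scale. Of the listed markers of excitatory neurons, 10 of 11 were measured, and their mean lay between 10.4 and 10.7 on every array. That of the 10 astrocyte markers lay between 10.05 and 10.34, so these means do not show which cells dominate. A gene is called changed where its limma p, adjusted by the Benjamini-Hochberg method over the 20306 genes, is under 0.05.

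Lsm11 was the member with the widest change, and only with shTdp-43-2 did it pass the test. The control arrays read 10.41, 10.50 and 10.33 on the log2 scale. The shTdp-43-1 arrays read 10.52, 10.47 and 10.40, and the shTdp-43-2 arrays read 8.70, 9.28 and 9.07. All 3 shTdp-43-2 arrays lay below the other 6, by more than the spread in either group, while shTdp-43-1 and shCont overlapped. With shTdp-43-2 Lsm11 fell by 1.40 on the log2 scale (95% interval -1.70 to -1.10), to 38.0% of control (limma adjusted p = 0.000296). With shTdp-43-1 the difference was 0.05 (interval -0.25 to 0.35, limma adjusted p = 0.839). The hairpins differed from each other by -1.45 ± 0.133 (SE, limma adjusted p = 0.000772), although Tardbp was reduced to about the same level by both. Each call of Lsm11 held in all 18 alternative analyses, where its change with shTdp-43-2 ran from -1.53 to -1.24.

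The probe sets of Lsm11 moved together. It has 10, all measured, and all 10 were lower with shTdp-43-2 than with shCont, by 0.56 to 1.86 on the log2 scale. Fitted one by one over 628416 probe sets, 8 of the 10 fell, while 1.03% of all probe sets fell in that comparison and 1.54% were called in either direction. With shTdp-43-1, 6 lay above 0 and 4 below, and limma called none (0 at an unadjusted p under 0.05), against 0.0843% of all. Between the hairpins 8 of the 10 were lower with shTdp-43-2 by the same test, where 0.176% of all were lower and 0.243% were called in either direction.

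**Figure D1:**
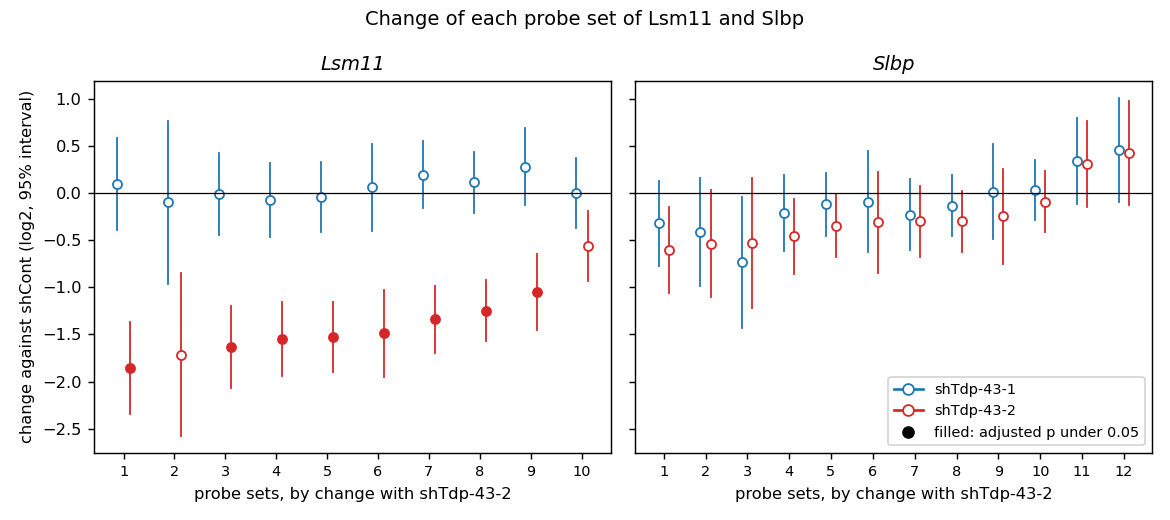
Change of each measured probe set of Lsm11 (10) and Slbp (12) against shCont, on the log2 scale with 95% intervals, ordered by the change with shTdp-43-2; filled points passed limma's test. All 10 Lsm11 probe sets lie below 0 with shTdp-43-2 and around 0 with shTdp-43-1, and no Slbp probe set passed.

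Slbp, the stem-loop binding protein, did not pass the test with either hairpin. It read 9.03, 9.19 and 9.16 with shCont and 9.07, 8.94 and 9.01 with shTdp-43-1. With shTdp-43-2 it read 8.95, 9.01 and 8.67. The shTdp-43-2 arrays all lay below the control arrays, and the shTdp-43-1 arrays overlapped both groups. The differences from control were -0.12 (interval -0.35 to 0.11, limma adjusted p = 0.499) and -0.25 (interval -0.48 to -0.02, limma adjusted p = 0.137). Of its 12 measured probe sets, 10 lay below 0 with shTdp-43-2 and none was called. With the median of probe sets as the gene value, the change with shTdp-43-2 was -0.35 and passed (limma adjusted p = 0.0428), the only 1 of 18 alternatives in which Slbp was called.

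Among the genes of histone mRNA 3′ end processing, 26 of 26 listed were measured. They comprise the U7 particle, Slbp, the cleavage factors and the cap-binding proteins. None rose in any comparison. With shTdp-43-1, 1 of the 26 fell, where 3.32% of all genes fell and 6.58% were called in either direction. With shTdp-43-2, 4 of the 26 fell, Lsm11 among them, where 9.93% of all genes fell and 15.5% were called in either direction. Between the hairpins 3 were lower with shTdp-43-2, where 4.78% of all genes were lower and 7.47% were called in either direction. The median change was -0.11, -0.10 and 0.01, beside 0.02, 0.00 and -0.04 over all genes. Below 0 lay 20, 19 and 13 of the 26, beside 9370, 10008 and 11828 of 20306 genes. At an unadjusted p under 0.05 the counts were 6, 8 and 8, beside 4777, 5796 and 4387. The mean of the 26, Lsm11 included, lay between 9.84 and 9.89 with shCont. It lay between 9.73 and 9.82 with shTdp-43-1 and between 9.62 and 9.73 with shTdp-43-2. The list was not tested as a set.

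Cpsf2, a partner of the histone endonuclease that lacks its catalytic site, fell with shTdp-43-2. It read 10.00, 10.08 and 10.07 with shCont and 10.14, 9.95 and 10.03 with shTdp-43-1, against 9.02, 9.45 and 9.15 with shTdp-43-2. Only the shTdp-43-2 arrays stood apart, at 55.9% of control (-0.84, limma adjusted p = 0.00131). The difference was -0.01 with shTdp-43-1, and -0.83 between the hairpins (limma adjusted p = 0.00316).

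Cpsf3, the endonuclease itself, read 11.03, 10.90 and 10.99 with shCont, 10.77, 11.03 and 10.73 with shTdp-43-1, and 10.48, 10.57 and 10.62 with shTdp-43-2. It fell by 0.42 on the log2 scale with shTdp-43-2 (limma adjusted p = 0.0166), and the hairpins were not told apart (-0.29, limma adjusted p = 0.103). That call was lost without shCont replicate 1, shCont replicate 3 or shTdp-43-2 replicate 1, where the change ran from -0.41 to -0.38 with adjusted p from 0.0533 to 0.0660. With the median of probe sets it was -0.38 (limma adjusted p = 0.171).

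Ncbp2, the small subunit of the nuclear cap-binding complex, read 10.59, 10.51 and 10.57 with shCont. It read 10.28, 10.21 and 10.25 with shTdp-43-1 and 9.62, 9.73 and 9.68 with shTdp-43-2. The 3 groups did not overlap. It fell to 54.4% of control with shTdp-43-2 (-0.88, limma adjusted p = 0.000169) and to 80.7% with shTdp-43-1 (-0.31, limma adjusted p = 0.0334), and the hairpins differed by -0.57 (limma adjusted p = 0.00238). The call with shTdp-43-1 was lost without any 1 of the 6 shCont and shTdp-43-1 arrays (changes from -0.33 to -0.29, adjusted p from 0.0619 to 0.125), with the median of probe sets (-0.21, adjusted p = 0.353) and with only those groups in the fit (adjusted p = 0.0539).

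Lsm10, Zfp473, Casp8ap2, Npat and Eri1, also specific to the histone pathway, were not called with either hairpin. The H4 activator Hinfp, which fell with shTdp-43-2, is described with the regulators of histone genes below. Lsm10, the partner of Lsm11 in the U7 ring, differed from control by -0.28 and -0.05 with the first and the second hairpin. Zfp473, a zinc finger protein that binds the U7 particle, differed by -0.31 and -0.24. Casp8ap2 (FLASH), which bridges Lsm11 and the cleavage factors, differed by -0.20 and 0.08. Npat, the coactivator of histone genes at histone locus bodies, differed by -0.28 and -0.25. Eri1, an exonuclease that trims the stem-loop, differed by -0.20 and -0.11. Their adjusted p ranged from 0.0936 (Lsm10 with shTdp-43-1) to 0.771 (Lsm10 with shTdp-43-2).

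**Figure D2:**
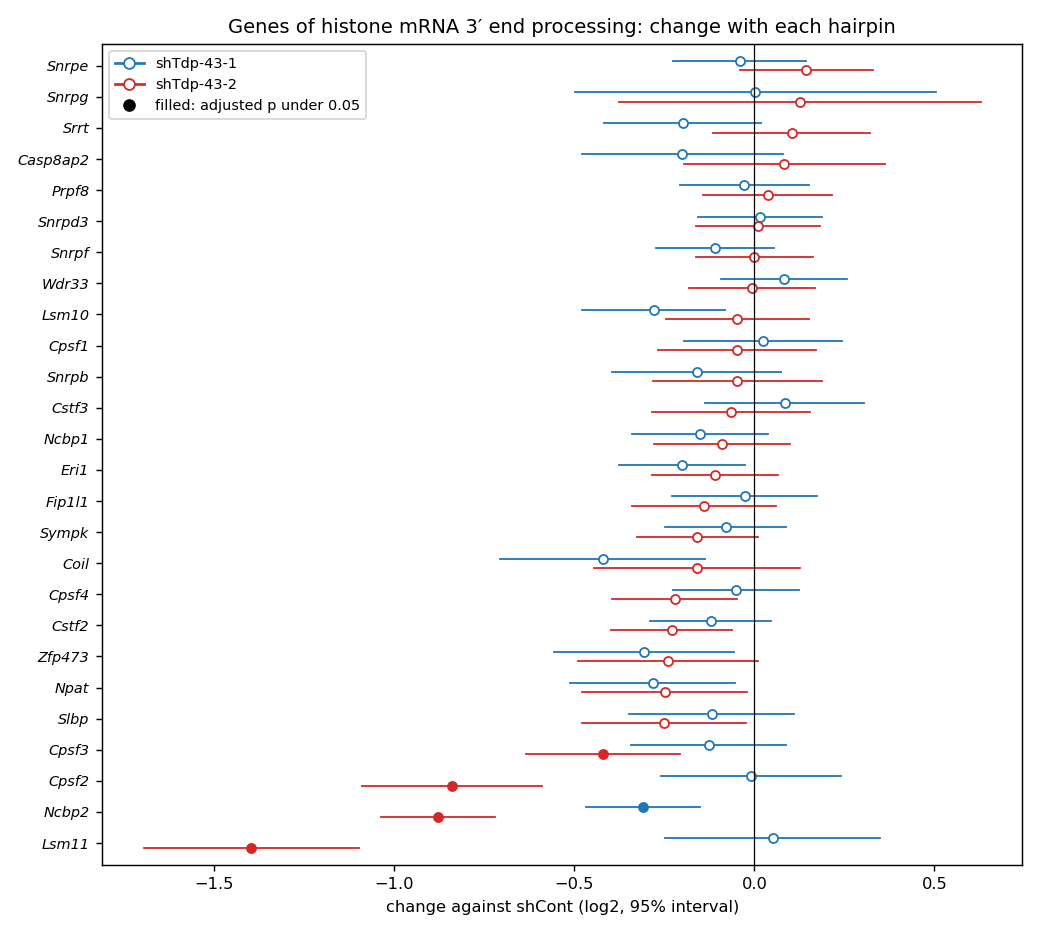
Change of the 26 genes of histone mRNA processing against shCont with each hairpin, on the log2 scale with 95% intervals; filled points passed limma's test. Lsm11 (-1.40), Ncbp2 (-0.88), Cpsf2 (-0.84) and Cpsf3 (-0.42) fell with shTdp-43-2, and Ncbp2 (-0.31) alone fell with shTdp-43-1.

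Most histone genes were not called. With shTdp-43-1, 2 of the 24 measured rose and 0 fell, where 3.26% of all genes rose and 3.32% fell. With shTdp-43-2, 2 rose and 1 fell, where 5.53% rose and 9.93% fell, and between the hairpins 1 was lower with shTdp-43-2 and 0 higher, where 4.78% of all genes were lower and 2.69% higher. In either direction that is 2, 3 and 1 of 24, beside 6.58%, 15.5% and 7.47% of all genes, which is near the background. Centring each array on its median turned the calls over all genes with shTdp-43-2 from 1122 higher and 2017 lower to 1839 and 1672, and those between the hairpins from 546 and 970 to 953 and 933. Among the histone genes it left 2 higher and 0 lower with shTdp-43-2. At an unadjusted p under 0.05 the counts were 3, 5 and 1 of 24. The median change of the 24 was 0.08, 0.05 and -0.01 on the log2 scale, beside 0.02, 0.00 and -0.04 over all genes, and in each comparison 23 of 24 lay within 0.5 of 0. With the fall of Lsm11 to 38.0% of control, the 24 histone genes lay between -0.50 and 0.69 in the same arrays. In these bulk cultures, fewer cells of a kind and less RNA per cell cannot be told apart. P-values measure only the spread between the 3 samples within each group, pooled over the groups in 1 fit and moderated over all genes. The labels do not say that these samples came from separate cultures.

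**Figure D3:**
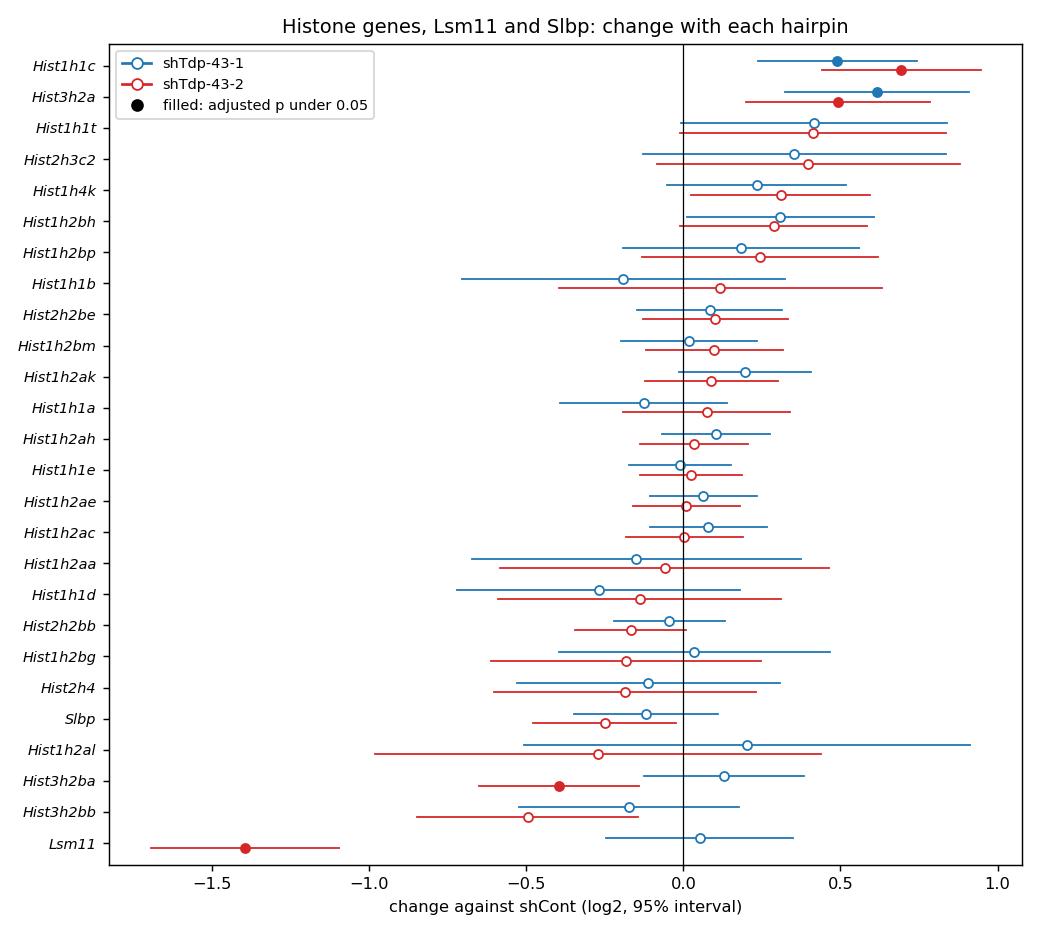
Change of the 24 measured histone genes, Lsm11 and Slbp against shCont, on the log2 scale with 95% intervals; filled points passed limma's test. Most histone genes lie near 0 with both hairpins; Hist1h1c and Hist3h2a are filled on the right with both, Hist3h2ba on the left with shTdp-43-2 only, where Lsm11 lies at -1.40.

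The arrays of 2 groups did not overlap for 5 of 24 histone genes with shTdp-43-1, 7 with shTdp-43-2 and 4 between the hairpins. Over all genes 32.1%, 34.4% and 25.1% were apart in this way. Against control, 4 of the 5 and 4 of the 7 were higher with the hairpin.

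The promoters of the 3 called histone genes are shown because such genes are commonly driven by a few short elements that the members share. The sequences, from RefSeq (GRCm38.p6), are the 250 bases before the annotated start, 5′ to 3′ on the gene's strand. Capitals mark the 4 motifs searched on both strands, which may overlap. The NF-Y box was searched as CCAAT and the octamer bound by Oct-1 as ATTTGCAT. A TATA box was searched as TATANA, and the core of the H1 box as AAACACA.
Hist1h1c, chr13:23738557-23738806, + strand: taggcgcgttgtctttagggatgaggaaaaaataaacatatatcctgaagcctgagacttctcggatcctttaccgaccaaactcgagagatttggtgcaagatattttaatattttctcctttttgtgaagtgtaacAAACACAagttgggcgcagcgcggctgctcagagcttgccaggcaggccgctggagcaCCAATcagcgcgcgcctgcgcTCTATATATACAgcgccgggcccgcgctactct
Hist3h2a, chr11:58954435-58954684, + strand: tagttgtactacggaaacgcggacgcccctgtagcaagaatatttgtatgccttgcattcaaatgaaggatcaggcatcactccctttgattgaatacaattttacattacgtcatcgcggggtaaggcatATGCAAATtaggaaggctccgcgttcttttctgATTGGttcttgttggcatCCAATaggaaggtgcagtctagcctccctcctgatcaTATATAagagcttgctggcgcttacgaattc
Hist3h2ba, chr11:58948661-58948910, + strand: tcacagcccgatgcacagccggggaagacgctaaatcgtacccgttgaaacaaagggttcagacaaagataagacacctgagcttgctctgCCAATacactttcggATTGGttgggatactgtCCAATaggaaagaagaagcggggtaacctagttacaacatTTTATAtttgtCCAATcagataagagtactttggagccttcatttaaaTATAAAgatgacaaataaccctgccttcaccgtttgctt

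Of the 26 histone genes, 22 had a RefSeq promoter window, all but Hist2h2be, Hist2h4, Hist3h2bb and Hist1h2al. CCAAT was in 20 of the 22, against 33.8% of 32851 windows of the same length. TATANA was in 17 (22.6% of all windows) and the octamer in 9 (1.6%). The octamer was in 9 of 14 H2A and H2B windows and in 0 of 6 H1 windows, while AAACACA was in 5 of 6 H1 windows and 8 of the 22 (6.25% of all windows). Hist1h1c, which rose with both hairpins, has the H1 motif, 1 CCAAT and no octamer. Hist3h2a has 2 CCAAT and 1 octamer, and Hist3h2ba, its H2B neighbour, has 4 CCAAT and no octamer. These matches describe the letters of the windows only.

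Hist1h1c encodes the linker histone H1.2, one of the H1 subtypes that persist in cells that no longer divide. It read 9.40, 9.08 and 9.21 with shCont, 9.59, 9.75 and 9.82 with shTdp-43-1, and 9.79, 9.90 and 10.08 with shTdp-43-2. All 6 knockdown arrays lay above the 3 control arrays, and the hairpins overlapped. It rose by 0.49 ± 0.113 (SE) with shTdp-43-1, 1.40-fold (limma adjusted p = 0.0344), and by 0.69 ± 0.113 with shTdp-43-2, 1.62-fold (limma adjusted p = 0.00352). The difference between the hairpins was 0.20 (interval -0.05 to 0.46, limma adjusted p = 0.345). The call with shTdp-43-2 held in all 18 alternatives. That with shTdp-43-1 was lost without shCont replicate 2, shCont replicate 3, shTdp-43-1 replicate 2, shTdp-43-1 replicate 3 or shTdp-43-2 replicate 2, where the change ran from 0.41 to 0.49 with adjusted p from 0.0520 to 0.120.

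The rise of Hist1h1c rests largely on 1 of its 3 probe sets. Probe set 5554872 read 9.74, 9.69 and 9.85 with shCont, 10.81, 10.69 and 10.78 with shTdp-43-1, and 11.07, 11.12 and 11.25 with shTdp-43-2. Its 3 groups did not overlap, and it rose by 1.00 (limma adjusted p = 0.0391) and 1.39 (limma adjusted p = 0.00318). The other 2 probe sets of Hist1h1c differed from control by 0.17 and 0.30 with shTdp-43-1 and by 0.30 and 0.39 with shTdp-43-2, none of them called. Where the probe sets lie in the gene was not analysed here.

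Hist3h2a, an H2A gene outside the main histone clusters, read 10.06, 9.85 and 10.39 with shCont, 10.87, 10.62 and 10.66 with shTdp-43-1, and 10.55, 10.61 and 10.62 with shTdp-43-2. All 6 knockdown arrays lay above the control arrays, which were spread more widely than either knockdown group. With shTdp-43-1 it rose by 0.62 ± 0.131 (SE, limma adjusted p = 0.0259). The rise with shTdp-43-2 was 0.49 ± 0.131 (limma adjusted p = 0.0320). None of its 3 probe sets was called alone, and all 3 were above 0 with both hairpins (0.21 to 0.90 and 0.15 to 0.75). The call with shTdp-43-1 was lost without shCont replicate 1, shCont replicate 2 or any shTdp-43-1 replicate (0.49 to 0.67, adjusted p from 0.0583 to 0.0946). The call with shTdp-43-2 was lost without shCont replicate 1, shCont replicate 2 or any shTdp-43-2 replicate (0.37 to 0.51, adjusted p from 0.0696 to 0.102). With only the 2 groups compared in the fit, the adjusted p was 0.0527 and 0.0512. Hist3h2a overlaps Trim17, an E3 ubiquitin ligase gene, in the RefSeq table. The 7 measured probe sets annotated to both genes were all above 0 with each hairpin (0.07 to 0.47 and 0.03 to 0.40) and none was called.

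Hist3h2ba, an H2B gene of the same small cluster, read 9.68, 9.65 and 9.52 with shCont, 9.94, 9.72 and 9.58 with shTdp-43-1, and 9.40, 9.17 and 9.10 with shTdp-43-2. The shTdp-43-2 arrays lay below the other 6, and shTdp-43-1 overlapped control. With shTdp-43-2 it fell by 0.40 on the log2 scale (limma adjusted p = 0.0426). The difference with shTdp-43-1 was 0.13 (limma adjusted p = 0.509), and that between the hairpins -0.53 ± 0.113 (SE, limma adjusted p = 0.0241). The fall against control was not called when arrays were centred on their median (-0.33, adjusted p = 0.0637), when gene values were quantile normalized (-0.32, adjusted p = 0.0638) or with the median of probe sets (adjusted p = 0.0701). It was also lost without any shCont replicate, shTdp-43-1 replicate 2, shTdp-43-2 replicate 2 or shTdp-43-2 replicate 3 (-0.44 to -0.34, adjusted p from 0.0609 to 0.132). The difference between the hairpins was lost without shTdp-43-1 replicate 1, shTdp-43-1 replicate 2, shTdp-43-2 replicate 2 or shTdp-43-2 replicate 3 (-0.54 to -0.43, adjusted p from 0.0617 to 0.0680), and with only those 2 groups in the fit (adjusted p = 0.0659). Neither of its 2 probe sets was called alone.

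**Figure D4:**
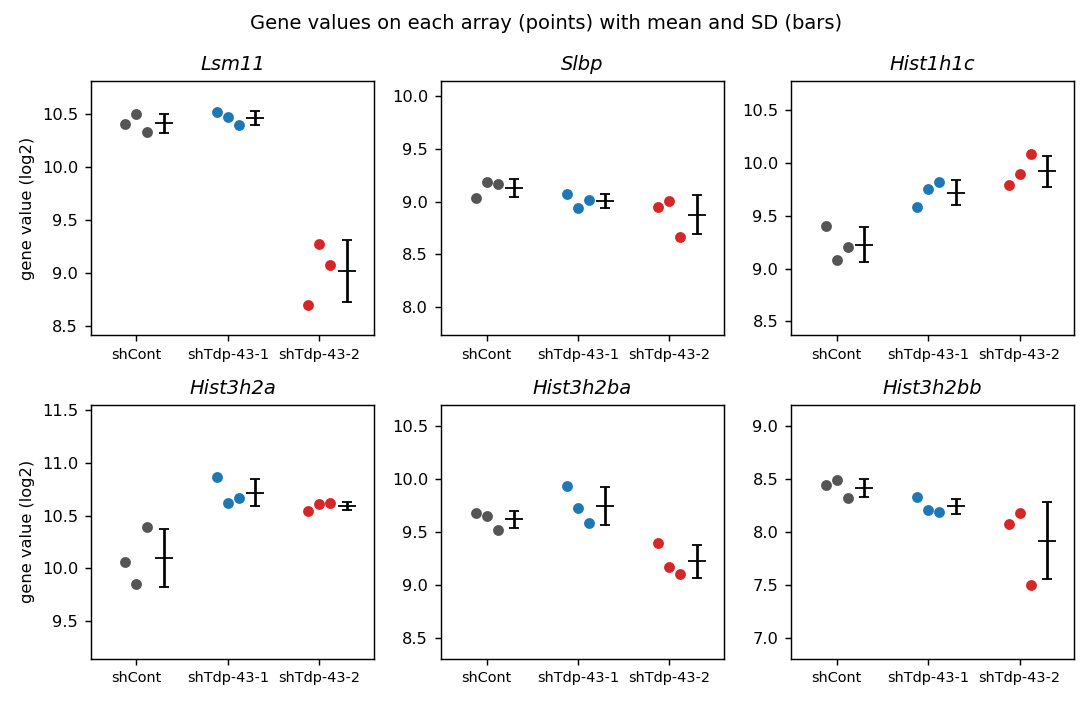
Gene values on the log2 scale on each array (points) with the mean and SD of the 3 arrays of a group (bars), for Lsm11, Slbp, the 3 histone genes called against control and Hist3h2bb. The panels differ in where their axes start, and levels are not comparable between genes; Lsm11 shows the 3 shTdp-43-2 arrays between 8.70 and 9.28, below all others.

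The gene with the highest log2 value in each histone class, which is no ranking of abundance, was not called in any comparison. Among linker histones, Hist1h1e (H1.4) read 10.42, 10.27 and 10.35 with shCont, 10.33, 10.33 and 10.34 with shTdp-43-1, and 10.32, 10.42 and 10.37 with shTdp-43-2. The groups overlapped, and its differences from control were -0.01 (interval -0.17 to 0.15) and 0.02 (interval -0.14 to 0.19). For the core histone H2A, Hist1h2ae read 14.17, 14.05 and 14.11 with shCont, 14.14, 14.26 and 14.12 with shTdp-43-1, and 14.09, 14.09 and 14.18 with shTdp-43-2. Its differences were 0.06 (interval -0.11 to 0.23) and 0.01 (interval -0.16 to 0.18), and the groups overlapped. These readings lie near the top of the table, where 0.0283% of probe sets average 14 or more and the highest averages 14.92. Of the 11 measured H2A member probe sets, 4, those of Hist1h2ae, Hist1h2ac and Hist1h2ah and 1 of Hist1h2ak, lie together between 14.08 and 14.14, as do 5 of the 17 shared H2A probe sets between 14.07 and 14.10. Whether they are saturated was not tested, so small differences here do not show that these mRNAs were unaltered.

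For H2B, Hist1h2bh read 10.01, 10.05 and 10.01 with shCont, 10.29, 10.65 and 10.06 with shTdp-43-1, and 10.41, 10.22 and 10.30 with shTdp-43-2. All 6 knockdown arrays lay above control, but the spread with shTdp-43-1 was wide, and the differences of 0.31 and 0.29 were not called (limma adjusted p = 0.199 and 0.191). Without shTdp-43-1 replicate 2 the first was 0.15. For H4, Hist1h4k read 9.06, 8.63 and 9.06 with shCont, 9.26, 9.04 and 9.15 with shTdp-43-1, and 9.11, 9.24 and 9.33 with shTdp-43-2. Its differences were 0.23 and 0.31 (limma adjusted p = 0.299 and 0.141), and 0.09 and 0.17 without shCont replicate 2. For H3, Hist2h3c2, the only H3 gene with a probe set of its own, averaged 6.61 ± 0.437 with shCont and 6.96 ± 0.314 with shTdp-43-1 (SD, n = 3), and lay between 6.87 and 7.07 on the shTdp-43-2 arrays. The groups overlapped, with differences of 0.35 and 0.40 (limma adjusted p = 0.346 and 0.267). Leaving out 1 array moved them between 0.12 and 0.55 and between 0.16 and 0.60, lowest without shCont replicate 2 and highest without shCont replicate 3, and the first was 0.18 without shTdp-43-1 replicate 1.

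The counts by class rest on few genes each. Over all genes 3.26% rose and 3.32% fell with shTdp-43-1, and 5.53% and 9.93% with shTdp-43-2. Of the 6 H1 genes, 1 rose with each hairpin, with median changes of -0.07 and 0.10 in the order of the hairpins. Of the 7 measured H2A genes, 1 rose with each hairpin, with medians of 0.10 and 0.01. Of the 8 measured H2B genes, none was called with shTdp-43-1 and 1 fell with shTdp-43-2, with medians of 0.06 and -0.03. The H2B pseudogene Hist3h2bb had the most negative difference among histone genes with shTdp-43-2, and it just missed the test. It read 8.44, 8.48 and 8.32 with shCont and 8.08, 8.17 and 7.50 with shTdp-43-2, a difference of -0.50 (limma adjusted p = 0.0614). Its 2 measured probe sets were not alike, and neither was called. Probe set 4335536, averaging 10.04, differed by -0.10. Probe set 5100831, averaging 6.34 and so near the level threshold, differed by -0.89, with shTdp-43-2 replicate 3 at 5.14. The 2 H4 genes, Hist1h4k and Hist2h4, went opposite ways with no call. Many members rest on 1 or 2 probe sets: 15 of the 24 measured histone genes have 2 or more, and among those 2 rose with shTdp-43-1, and 2 rose and 1 fell with shTdp-43-2.

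Fitted singly, 1 of the 56 measured histone probe sets was called with shTdp-43-1, where 0.0843% of all probe sets were, and 2 with shTdp-43-2, where 1.54% were. The one with shTdp-43-1 is the Hist1h1c probe set above, which was also called with shTdp-43-2. The other, probe set 4628524 of the H2B gene Hist2h2bb, read 8.70, 8.29 and 8.48 with shCont and 7.63, 7.57 and 7.06 with shTdp-43-2. It fell by 1.07 (limma adjusted p = 0.0418), while the gene, averaged over its 11 measured probe sets, differed by -0.17.

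Histone genes are so alike that many probe sets match several of them. These probe sets carry several symbols, are no members by the rule, and were examined after the single-symbol values were known. There are 115 whose symbols are all of histone genes, and 91 passed the level threshold. With shTdp-43-1 limma called none (5 at an unadjusted p under 0.05), where 0.0508% of all probe sets rose and 0.0336% fell. With shTdp-43-2, 3 rose and 0 fell (17 at an unadjusted p under 0.05), where 0.506% rose and 1.03% fell. Between the hairpins limma called none (8 at an unadjusted p under 0.05), where 0.0672% were higher and 0.176% lower. Of the 91, 61 lay above 0 with shTdp-43-1 and 71 with shTdp-43-2, with median changes of 0.08 and 0.11. The share of all probe sets above 0 was not counted, so these counts have no background. Many of the 91 carry the same symbols and are not separate observations.

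Of the 3 that rose, 2 match the H2B genes Hist1h2bb, Hist1h2bc, Hist1h2be and Hist1h2bg. Probe set 4690587 read 11.16, 11.06 and 11.42 with shCont, 11.49, 11.50 and 11.47 with shTdp-43-1, and 12.07, 12.32 and 12.22 with shTdp-43-2 (0.99, limma adjusted p = 0.0141). Probe set 5069254 read 8.78, 8.04 and 8.36 with shCont, 8.82, 8.44 and 8.38 with shTdp-43-1, and 9.89, 9.40 and 9.63 with shTdp-43-2 (1.25, limma adjusted p = 0.0268). In both, the shTdp-43-2 arrays lay above the other 6, and the test between the hairpins was not passed (0.72 and 1.09, limma adjusted p = 0.0970 and 0.0921). Other measured probe sets with the same 4 symbols were not called with shTdp-43-2, among them 4327149 (-0.12), 4521473 (0.32) and 4623168 (0.40). Hist1h2bg is the only 1 of these 4 genes with probe sets of its own. It differed from control by 0.04 and -0.18 over 2 probe sets just above the level threshold, with no call.

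Probe set 5023879 matches 8 H3 genes of the Hist1 and Hist2 clusters. It read 8.34, 7.78 and 8.17 with shCont, 9.42, 9.23 and 9.15 with shTdp-43-1, and 9.69, 9.58 and 9.56 with shTdp-43-2. Its 3 groups did not overlap. With shTdp-43-2 it rose by 1.51 (limma adjusted p = 0.00528). The difference of 1.17 with shTdp-43-1 just missed the threshold (limma adjusted p = 0.0507). The 24 measured H3 probe sets had medians of -0.03 and 0.03 and this was the 1 called among them. The class with the highest median with shTdp-43-2 was H2B, at 0.28 over 27 probe sets, beside 0.09 with shTdp-43-1. H2A (17 probe sets) had medians of 0.12 and 0.08, and H4 (21 probe sets) of 0.15 and 0.11. Whether these probe sets see tailed or stem-loop mRNA was not tested.

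**Figure D5:**
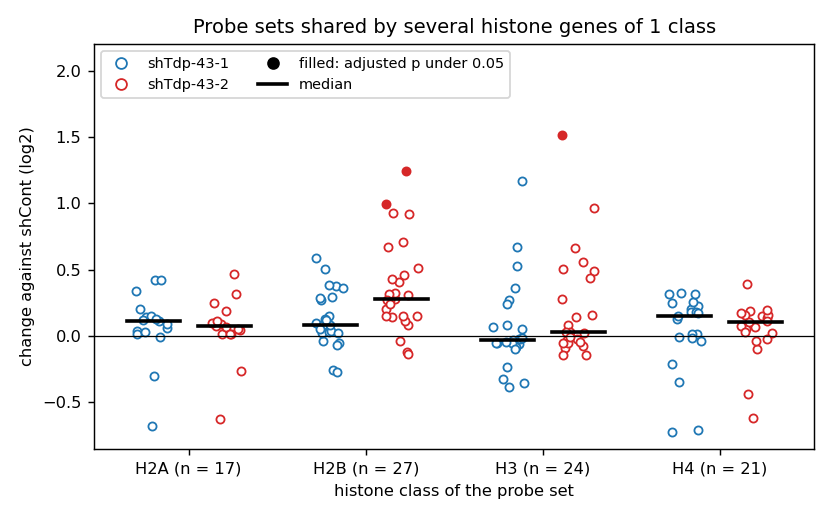
Change against shCont, on the log2 scale, of each measured probe set whose symbols are all histone genes of 1 class (points; horizontal bars are medians); filled points passed limma's test. With shTdp-43-2, 2 H2B probe sets (0.99 and 1.25) and 1 H3 probe set (1.51) are filled, and the H2B median lies at 0.28.

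Regulators that switch histone genes on were mostly not called against control. Over all genes, the share to set beside the counts of this and the following lists is 3.26% higher and 3.32% lower with shTdp-43-1, 5.53% and 9.93% with shTdp-43-2, and 2.69% and 4.78% between the hairpins. Of 11 measured genes of histone gene transcription, limma called none with shTdp-43-1 (2 at an unadjusted p under 0.05). Of these 11, 1 rose and 1 fell with shTdp-43-2. The H4 activator Hinfp, named Mizf in the annotation, read 9.26, 9.01 and 9.17 with shCont, 9.27, 9.18 and 9.16 with shTdp-43-1, and 8.69, 8.82 and 8.68 with shTdp-43-2. The shTdp-43-2 arrays lay below the other 6, a fall of 0.42 (limma adjusted p = 0.0118), and the hairpins differed by -0.47 (limma adjusted p = 0.0135). The fall was lost without shCont replicate 1 (-0.36, adjusted p = 0.0528) and the difference between hairpins without shTdp-43-2 replicate 1 (-0.45, adjusted p = 0.0583).

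E2f1, an activator of S phase genes, read 9.31, 9.41 and 9.06 with shCont, 9.71, 9.35 and 9.35 with shTdp-43-1, and 10.24, 10.03 and 9.91 with shTdp-43-2. It rose by 0.80 with shTdp-43-2 (limma adjusted p = 0.00433), the shTdp-43-2 arrays lying above all others, and that call held in all 18 alternatives. The cyclin genes Ccne1 and Ccne2, whose kinase acts on Npat, were called between the hairpins and not against control (-0.36 and 0.70, limma adjusted p = 0.0411 and 0.0267). Leaving out any 1 of the 9 arrays ended the call of Ccne1 (-0.41 to -0.28, adjusted p from 0.0543 to 0.116), as did a lower level filter, no filter, the median of probe sets and the fit of only those 2 groups (adjusted p from 0.0502 to 0.0995). That of Ccne2 ended without shTdp-43-1 replicate 2, shTdp-43-1 replicate 3, shTdp-43-2 replicate 1 or shTdp-43-2 replicate 2 (0.57 to 0.67, adjusted p from 0.0701 to 0.0955), with the median of probe sets (0.50, adjusted p = 0.150) and with only those 2 groups in the fit (adjusted p = 0.0690).

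Of 14 genes of histone mRNA translation and decay, 2 rose with shTdp-43-1 and 1 fell with shTdp-43-2. The 2 that rose act at the 5′ end: the exonuclease gene Xrn1 (0.67, limma adjusted p = 0.0374) and the decapping enzyme gene Dcp2 (0.44, limma adjusted p = 0.0484). The one that fell was the uridylyl transferase gene Zcchc6 (-0.36, limma adjusted p = 0.0225). None of these calls held in all alternatives. Xrn1 lost its call without shCont replicate 1, shCont replicate 2, shTdp-43-1 replicate 1, shTdp-43-1 replicate 3 or shTdp-43-2 replicate 1 (0.57 to 0.67, adjusted p from 0.0533 to 0.133), and with only the 2 groups compared (adjusted p = 0.0509). With shTdp-43-2 it differed by 0.51 (limma adjusted p = 0.0591), which passed in 6 of the 18 alternatives. Dcp2 lost it without any 1 array other than shTdp-43-2 replicate 3 (0.37 to 0.53, adjusted p from 0.0520 to 0.151). It was also lost with a lower level filter or none (0.40 and 0.39, adjusted p = 0.0841 for both), the median of probe sets (0.45, adjusted p = 0.0954) and only the 2 groups compared (adjusted p = 0.0530). Zcchc6 lost it without any shCont replicate, shTdp-43-2 replicate 1 or shTdp-43-2 replicate 3 (-0.39 to -0.30, adjusted p from 0.0519 to 0.0847), and with only the 2 groups compared (adjusted p = 0.0519). Between the hairpins limma called none of the 14 (1 at an unadjusted p under 0.05).

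No relative of Lsm11 was called lower in any comparison. In the Lsm and Sm family, all 22 listed genes were measured, and Lsm11 was the only one called lower. With shTdp-43-2 that is 1 of 22, where 9.93% of all genes fell, so it is no result about the family. Of the 22, 9 lay above 0 and 13 below with shTdp-43-1, and 15 and 7 with shTdp-43-2. At an unadjusted p under 0.05 the counts were 4, 4 and 7 of 22, beside 4777, 5796 and 4387 of 20306 genes. Lsm14b, an RNA-granule protein outside the U7 particle, read 11.05, 11.13 and 11.26 with shCont, 11.88, 11.79 and 11.79 with shTdp-43-1, and 11.92, 11.90 and 11.94 with shTdp-43-2. It rose by 0.67 (limma adjusted p = 0.00228) and 0.78 (limma adjusted p = 0.000384), in all 18 alternatives. Snrpn, a tissue-restricted Sm protein gene, rose by 0.64 with shTdp-43-2 (limma adjusted p = 0.0113). That call was lost with the median of probe sets (0.54, limma adjusted p = 0.0572).

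Replication-independent histone variants, whose mRNAs carry a poly(A) tail and do not need the U7 particle, were not called by limma in any comparison (3, 0 and 2 at an unadjusted p under 0.05). Of 14 listed, 12 were measured, and their changes ran from -0.47 to 0.32 with shTdp-43-1 and from -0.09 to 0.19 with shTdp-43-2. Their medians, -0.05 and 0.04, compare with 0.08 and 0.05 for the replication-dependent genes.

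Histone chaperones carry histones to and from DNA. Of 22 measured, limma called none with shTdp-43-1 (7 at an unadjusted p under 0.05), and 2 rose and 6 fell with shTdp-43-2, where 5.53% of all genes rose and 9.93% fell. Those that fell include Anp32e, which removes the variant H2A.Z (-0.85, limma adjusted p = 0.00349), Chaf1b, a subunit of the replication-coupled assembly factor CAF-1 (-0.62, limma adjusted p = 0.00786), Supt16 of the FACT complex (-0.60, limma adjusted p = 0.00401) and Nap1l4 of the nucleosome assembly family (-0.56, limma adjusted p = 0.00253). Ubn1 of the H3.3 chaperone HIRA rose (0.58, limma adjusted p = 0.00316). These 5 calls against control held in all 18 alternatives. Nap1l4 and Anp32e also differed between the hairpins (-0.48 and -0.54, limma adjusted p = 0.0111 and 0.0433), and Chaf1b, Supt16 and Ubn1 were not called there (limma adjusted p from 0.0517 to 0.177), although Supt16 passed in 4 and Ubn1 in 5 of the 18 alternatives. The difference of Anp32e between the hairpins was lost without any 1 array other than shTdp-43-2 replicate 2 (-0.61 to -0.46, adjusted p from 0.0541 to 0.153). It was also lost with a lower level filter (adjusted p = 0.0501), centred arrays (-0.50, adjusted p = 0.0523) and only those 2 groups in the fit (adjusted p = 0.0900).

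Markers of dividing and of other cells were read on the same arrays, since histone mRNA is most abundant in S phase. Of 30 measured genes of S phase and mitosis, 1 fell with shTdp-43-1, and 2 fell and 1 rose with shTdp-43-2. Mcm6, a subunit of the replicative helicase, fell by 0.52 (limma adjusted p = 0.0214) and 0.69 (limma adjusted p = 0.00252). With shTdp-43-1 its call was lost without any shCont replicate, shTdp-43-1 replicate 2 or shTdp-43-1 replicate 3 (-0.56 to -0.46, adjusted p from 0.0531 to 0.0903), and with the median of probe sets (-0.61, adjusted p = 0.0553). Also called with shTdp-43-2 were Mcm4, which fell, and Ccnb2, which rose. Over the 18 alternatives Mcm4 ran from -0.47 to -0.25, called in 16, and Ccnb2 from 0.36 to 0.50, called in 13. Against control, 8 of the 30 lay above 0 with shTdp-43-1 and 17 with shTdp-43-2 (medians -0.11 and 0.06). Between the hairpins 24 lay above 0 (median 0.13). Over all genes the medians were 0.02, 0.00 and -0.04, and 10936, 10298 and 8478 of 20306 lay above 0. The mean of the 30 genes lay between 8.41 and 8.56 with shCont, 8.30 and 8.53 with shTdp-43-1, and 8.34 and 8.60 with shTdp-43-2, so the groups overlapped.

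Of 10 neural progenitor markers, limma called none with shTdp-43-1 (2 at an unadjusted p under 0.05), and with shTdp-43-2 the intermediate filament genes Nes (0.60, limma adjusted p = 0.00487) and Vim (0.60, limma adjusted p = 0.00291) rose and Eomes was lower (-0.41, limma adjusted p = 0.0227). The Eomes call was lost without shCont replicate 1, shCont replicate 3, shTdp-43-2 replicate 1 or shTdp-43-2 replicate 3 (-0.44 to -0.32, adjusted p from 0.0502 to 0.0746), and with the median of probe sets (-0.29, adjusted p = 0.277). The mean of the list lay between 9.82 and 9.96, 9.75 and 9.82, and 9.94 and 9.96 in the 3 groups. Of 9 fibroblast and pericyte markers, 3 fell with shTdp-43-1 and 4 with shTdp-43-2, and the list's mean lay between 8.65 and 8.70, 8.32 and 8.46, and 8.35 and 8.41. Of 10 astrocyte markers, 1 and 2 fell, with means between 10.19 and 10.34, 10.15 and 10.18, and 10.05 and 10.13. Of 11 inhibitory neuron markers, 1 rose with each hairpin and 3 fell with shTdp-43-2, and of the 10 excitatory ones 1 rose and 2 fell with shTdp-43-1 and 1 fell with shTdp-43-2. Limma called none of 10 microglial, 6 endothelial and 7 oligodendrocyte markers against control (0, 1 and 1 had an unadjusted p under 0.05 for shTdp-43-1, and 0, 2 and 0 with shTdp-43-2). Log2 values of arrays have no true 0, so none of these markers can be called absent. The part of these cells in the changes of Lsm11 and the histone genes was not tested.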

How the data were processed

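RNA of 9 samples (3 per group) was measured on exon arrays. The authors' deposited table holds log2 values per probe set, made with RMA in Affymetrix Expression Console per the submitters' processing notes, which name the build mm9. Tool versions were not given in the sources used here. RMA brings all arrays to one distribution, which removes shifts shared by most probes. Names came from the platform annotation, in which 318760 of 1256831 probe sets carry 1 symbol and 6684 several, of which histone-only ones were read separately. Gene values are means of log2 over single-symbol probe sets whose 9-array mean reached the median of such means.

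All 9 arrays were fitted in one model with limma 3.58.1 in R 4.3.3 (lmFit, eBayes, 6 residual degrees of freedom), with Benjamini-Hochberg adjustment over 20306 genes, or 628416 probe sets for single probe sets, and a threshold of 0.05. The scripts were tested on simulated data. The number of arrays limits the precision. Alternatives changed the level filter, the probe sets per gene, their summary, the scaling, the block, the samples fitted, the variance moderation and the arrays included. Values on every array are given for Lsm11, Slbp, histone genes called in any comparison and the highest histone gene of each class (H3 by group); of each list at most 5 called genes are named by size of change, and genes specific to the histone pathway always. Hist3h2bb, the Hist2h2bb probe set, the shared probe sets and array values of list genes were added after their values were seen. The members and lists were chosen with earlier results of these data known. List symbols were matched through RefSeq synonyms, and promoter windows come from RefSeq (GRCm38.p6). No per-sample column was left unused. Hairpin and probe sequences were not used here.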

Additional observations from a re-analysis of the deposited data

Results flagged for a closer look

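The tests between the hairpins were passed by the following members and genes of the pathway, S phase and progenitor lists. Markers of other cells also passed and are not named here. They were 3 of 10 excitatory and 2 of 11 inhibitory neuron markers. Of 10 astrocyte markers 1 passed, and of 9 fibroblast and pericyte markers 3. Over all genes 7.47% were called in this comparison. All values are the log2 change with shTdp-43-2 minus that with shTdp-43-1, tested by limma over all 20306 genes. Both changes share the shCont arrays, which cancel in this difference.

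Lower with shTdp-43-2 were the U7 protein gene Lsm11 (-1.45), the cleavage factor gene Cpsf2 (-0.83), the cap-binding gene Ncbp2 (-0.57), the chaperone genes Anp32e (-0.54), Nap1l3 (-0.53) and Nap1l4 (-0.48), the H2B gene Hist3h2ba (-0.53), the H4 activator Mizf (Hinfp; -0.47) and Ccne1 (-0.36). Higher with shTdp-43-2 were the progenitor genes Nes (0.79), Vim (0.57) and Hes1 (0.36), the chaperone gene Nap1l5 (0.73), Ccne2 (0.70) and E2f1 (0.59). Adjusted p ran from 0.000772 for Lsm11 to 0.0433 for Anp32e. In Lsm11, Ncbp2, Cpsf2, Nap1l4, Nap1l5, Nes and Vim the difference was called in all 18 alternatives.

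In the others it was lost when 1 array was left out: any of the 9 for Ccne1 and Hes1, any but shTdp-43-2 replicate 2 for Anp32e, shTdp-43-2 replicate 1 for Mizf, and shTdp-43-1 replicate 1 or shTdp-43-2 replicate 1 for Nap1l3. For E2f1 and Ccne2 it was lost without shTdp-43-1 replicate 2, shTdp-43-1 replicate 3, shTdp-43-2 replicate 1 or shTdp-43-2 replicate 2, and for Hist3h2ba without the arrays named beside its value. The values left then ran from -0.61 to -0.46 for Anp32e, from -0.51 to -0.48 for Nap1l3, from 0.50 to 0.61 for E2f1, from 0.57 to 0.67 for Ccne2 and from 0.30 to 0.41 for Hes1. With the median of probe sets the difference was also lost in Hes1 (0.25, adjusted p = 0.313), E2f1 (0.45, 0.154), Ccne2 (0.50, 0.150), Ccne1 (-0.39, 0.0995) and Nap1l3 (-0.39, 0.0661). With only those 2 groups in the fit it was lost in E2f1, Ccne2, Ccne1, Anp32e, Hes1 and Hist3h2ba (adjusted p from 0.0608 to 0.0972). A lower level filter ended it in Anp32e and Ccne1, no filter in Ccne1, and centring the arrays in Anp32e (-0.50, adjusted p = 0.0523).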

How the results depend on the processing

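Of 2292 repeats of 128 single-gene results under 18 alternatives, none reversed a call, 150 lost one and 25 gained one. The other 2117 stayed on the same side of the threshold, though their values could move. Where no cause is given, it was not tested. Requiring at least 3 probe sets per gene (fewer genes tested) gave 1867 calls over all genes with shTdp-43-1 in place of 1336, 2 calls instead of 1 in the processing list, and 1 member called between the hairpins instead of 2; the histone median with shTdp-43-2 moved from 0.05 to 0.21 over 8 genes. The median of probe sets gave 818 calls over all genes with shTdp-43-1 and 910 in place of 1516 between the hairpins, and 0 calls in the processing list with shTdp-43-1. With only the 2 groups compared in the fit, 1 member was called with shTdp-43-1 instead of 2 and 1 between the hairpins instead of 2, the processing list had 0 calls with shTdp-43-1, and 773 genes were called between the hairpins.

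Whether the replicate numbers pair the arrays could not be settled from these values. Same-numbered arrays of different groups had deviations that correlated from -0.29 to 0.51, in 6 of 9 pairs above 0.1. Arrays with other numbers correlated from -0.58 to 0.57, and 5 of 9 arrays correlated best with their own number. With the number as a replicate block, the processing list had 2 calls with shTdp-43-1 instead of 1, 5 members were called with shTdp-43-2 instead of 4 (Hist3h2bb was added), and all genes had 1480, 3371 and 1548 calls. The block ended the calls of Dcp2 and Xrn1 with shTdp-43-1 (adjusted p = 0.0693 and 0.0568) and those of Anp32e and Hes1 between the hairpins (adjusted p = 0.0566 and 0.0562).

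Leaving out 1 array at a time gave 0 to 2 members called with shTdp-43-1, 2 to 4 with shTdp-43-2 and 1 to 2 between the hairpins. The processing list had 0 to 2, 3 to 4 and 3 to 3 calls. All genes had 397 to 1504, 1846 to 3155 and 599 to 1260 calls. The low counts came without any shCont replicate or shTdp-43-1 replicates 2 or 3 (shTdp-43-1), without shCont replicates 1 or 2 or shTdp-43-2 replicate 1 (shTdp-43-2), and without any shTdp-43-1 replicate or shTdp-43-2 replicate 1 (between hairpins). The histone medians ran from 0.03 to 0.16, 0.02 to 0.07 and -0.09 to 0.03.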
